A study of Mus musculus with 6 samples.

Results

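The respiratory chain ends in 3 enzymes of the inner mitochondrial membrane, and their nuclear-encoded subunits are described here in hearts of Txnip C247S knock-in mice and of wild-type mice. The members are 31 genes named by a list of symbols, 7 for complex III, 11 for complex IV, 12 for complex V and Cycs for cytochrome c, out of 49315 genes in the count table. All 31 matched an Ensembl identifier, lay on 16 chromosomes, and passed the filter on low counts together with 12777 genes in all. Their counts ran from 6272 to 104571 reads per gene and library, so none passed through 1 genotype alone. Heart RNA was sequenced from 3 knock-in and 3 wild-type mice of the C57BL/6 strain. The knock-in is conditional by its label, so the mutant form need not be present in every cell of these hearts. Txnip encodes an alpha-arrestin that limits glucose entry into cells and binds thioredoxin through a cysteine, the residue exchanged in the knock-in allele. The labels give the MerCreMer recombinase and 4-hydroxytamoxifen for the samples of both genotypes. Whether the recombinase was present in wild-type hearts is not clear from them, and they give neither its promoter nor sex, age, litter or batch. A transcript count from heart tissue cannot tell fewer cells of a type apart from less RNA per cell.

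Complex III takes electrons from ubiquinol and hands them to cytochrome c, a small soluble protein, while moving protons across the membrane. Complex IV takes the electrons from cytochrome c, reduces oxygen to water and moves more protons, and complex V, the ATP synthase, lets the protons back through a rotor that drives ATP synthesis in its F1 head. The catalytic centre of complex IV, cytochrome b of complex III and a piece of the proton channel of complex V are made from mitochondrial DNA, and every member described here is made from nuclear DNA and imported. Heart muscle holds these enzymes at high density and uses muscle forms of some complex IV subunits (Cox6a2, Cox7a1 and Cox8b) where most other tissues use Cox6a1, Cox7a2 and Cox8a.

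Library totals lay between 14146048 and 15620476 counts. Txnip, the targeted gene, was at 438, 391 and 429 CPM (counts scaled by library size with TMM factors) in knock-in hearts, against 724, 791 and 741 CPM in wild-type hearts, and fell by 0.84 ± 0.09 on the log2 scale (SE; edgeR adjusted p = 0.00379). That call was kept in 4 of 6 fits that left out 1 library and lost without wild-type replicate 2 or knock-in replicate 3, with adjusted p up to 0.0642. Wild-type replicate 3 stood apart from the other libraries for the members, being the lowest of the 6 libraries for 23 of the 31 genes and the lowest wild-type library for 28. Counts from the mitochondrial chromosome made up 22.9% to 24.1% of knock-in libraries, against 24.3%, 23.4% and, in replicate 3, 27.95% of wild-type libraries. Leaving this library out changed the sign of 4 members' log2 fold changes and moved those of 10 others by more than 1.5 times. Such changes were not particular to it. Leaving out any other single library changed the sign of 3 or 4 members and moved 5 to 10 others by that measure. The values so changed without wild-type replicate 3 are given beside the members, and what sets this library apart was not tested.

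None of the 31 members passed the test between genotypes, where 0.297% of all tested genes did (edgeR quasi-likelihood test, Benjamini-Hochberg adjusted p under 0.05). DESeq2, which called 1.07% of the genes it gave an adjusted p, and limma-voom also called 0 members, and the smallest adjusted p in edgeR was 0.176, for Uqcrh. Differences were small, with log2 fold changes (knock-in over wild-type) between −0.18 and 0.34 and a median of 0.15, against −0.01 over all tested genes. The value was higher in knock-in hearts for 24 members and lower for 7, while 48.3% of all tested genes had a higher value. At an unadjusted p under 0.05, 12 members were higher and 0 lower, where 9.97% of all genes passed that threshold, 4.74% higher and 5.23% lower. For 16 members all 3 knock-in hearts lay above all 3 wild-type hearts and for 0 members below, where 8.12% of all genes lay above and 7.99% below. Members whose 3 hearts of each genotype do not overlap are called separated in what follows.

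Abundant genes in general also had more higher than lower values. Of the 188 genes with a mean CPM at least as high as the lowest member, which include the 31 members, 133 had a higher value in knock-in hearts, 22.3% were higher at an unadjusted p under 0.05 and 30.9% had all knock-in hearts above all wild-type hearts, with a median log2 fold change of 0.08. This group was set after the data had been seen. Without wild-type replicate 3 the members' median was 0.11, with 20 positive values and 9 members higher at an unadjusted p under 0.05. Without knock-in replicate 1, the highest library for 15 members, the median was 0.15 but the members higher at an unadjusted p under 0.05 numbered 6.

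**Figure D1:**
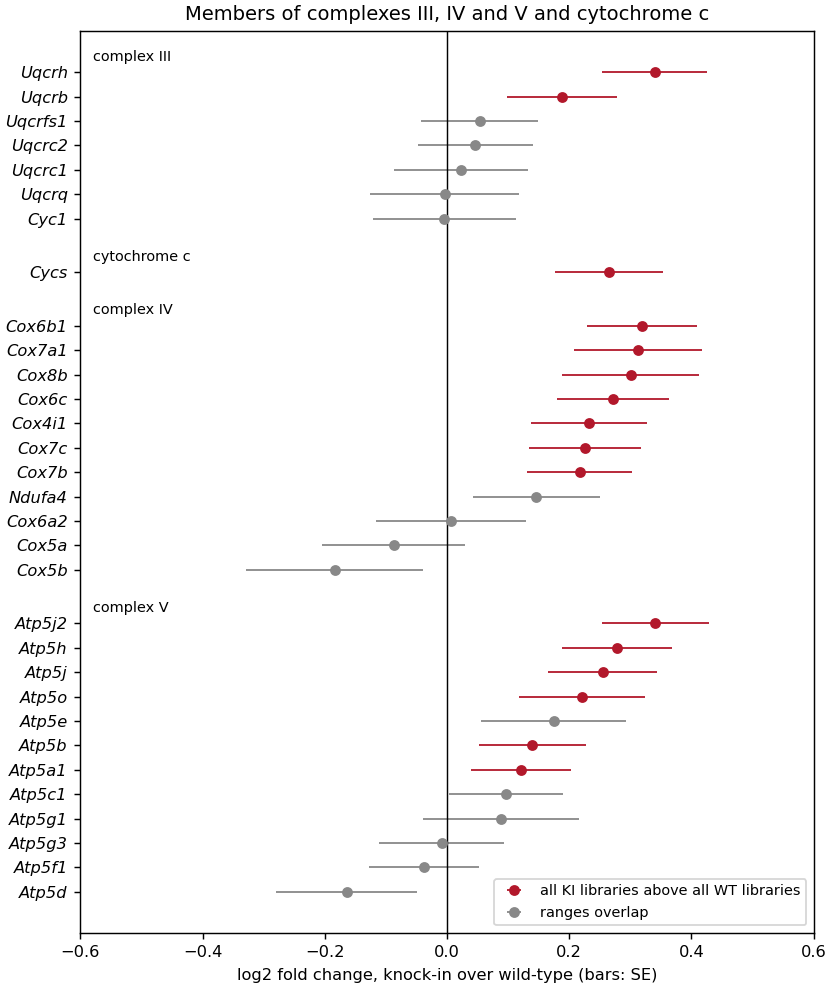
Log2 fold change of each of the 31 members, knock-in over wild-type, with bars of 1 SE, grouped by complex. The 16 red points are members whose 3 knock-in hearts all lay above the 3 wild-type hearts, and no member passed the adjusted test.

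In complex III the large and electron-carrying subunits had values near 0, and 2 small subunits had higher values in knock-in hearts. The median log2 fold change of the 7 genes was 0.05, with 5 positive values. Uqcrc1 and Uqcrc2, the core proteins that face the matrix, had log2 fold changes of 0.02 ± 0.11 and 0.05 ± 0.09 (SE). Without wild-type replicate 3 that of Uqcrc1 was −0.08, and without knock-in replicate 2 that of Uqcrc2 was −0.02. Cyc1, cytochrome c1, had the lowest value of the complex and stood at 1018, 1006 and 1006 CPM in knock-in hearts, against 1065, 1144 and 831 CPM in wild-type hearts. Its wild-type hearts spanned the knock-in hearts on both sides. The log2 fold change was −0.00, with an approximate 95% interval from the SE of −0.23 to 0.22, and −0.13 without wild-type replicate 3. That interval takes a normal distribution and is narrower than the F test of edgeR would give.

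Uqcrfs1, the Rieske iron-sulfur protein, is the complex III member with the highest transcript level per exon length in wild-type hearts. It was at 1014, 926 and 965 CPM in knock-in hearts, against 958, 997 and 843 CPM in wild-type hearts. The genotypes overlapped, and the log2 fold change was 0.05 ± 0.10 (SE), or −0.01 without wild-type replicate 3.

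Uqcrh (ENSMUSG00000063882, chromosome 4, 116066965 to 116075071, GRCm38), the hinge protein by which cytochrome c1 meets cytochrome c, had the smallest p of all members. It was at 1072, 1053 and 975 CPM in knock-in hearts, against 835, 814 and 801 CPM in wild-type hearts. Every knock-in heart was above every wild-type heart, with means of 1033 ± 51.4 and 816 ± 17.0 CPM (SD, n = 3 each). Its fold of 1.27 is a log2 value of 0.34 ± 0.09 (SE; edgeR adjusted p = 0.176), which lay between 0.32 and 0.38 with each library left out.

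Uqcrb, the ubiquinone-binding protein, was at 628, 549.9 and 565 CPM in knock-in hearts, against 524, 505 and 502 CPM in wild-type hearts. These ranges did not overlap, but the gap was small, with a log2 fold change of 0.19 ± 0.09 (SE; edgeR adjusted p = 0.535). Of its 31-base words, 30.5% occur in transcripts of other genes, chiefly the pseudogene Gm16089, which held 66 counts in the 6 libraries beside 48521 for Uqcrb. Uqcrq, another small subunit, had a log2 fold change of −0.00 ± 0.12, or −0.11 without wild-type replicate 3, so the small subunits did not share 1 value.

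Cycs, cytochrome c itself, was at 886, 955 and 877 CPM in knock-in hearts, against 761, 711 and 789 CPM in wild-type hearts. The genotypes did not overlap, and wild-type replicate 3 was here the highest wild-type heart. The log2 difference was 0.26 ± 0.09 (SE; edgeR adjusted p = 0.331), and 0.30 without that library. Cycs has many processed copies, and 31.9% of its 31-base words occur in transcripts of other genes, so its count is uncertain to that extent.

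In complex IV the genotypes were separated for 7 of 11 members, against 2 of 7 in complex III. Of all genes, 8.12% were separated with knock-in hearts above, as were 30.9% of the 188 abundant genes. The median log2 fold change of complex IV was 0.23 with 9 positive values. The 5 small subunits Cox6b1, Cox6c, Cox7b, Cox7c and Ndufa4 all had higher values in knock-in hearts. Cox6b1 (ENSMUSG00000036751, chromosome 7, 30616861 to 30626151), the subunit that bridges the monomers on the cytochrome c side, was at 991, 942 and 888 CPM in knock-in hearts, against 786, 766 and 709 CPM in wild-type hearts. No wild-type heart reached the lowest knock-in heart, and the difference on the log2 scale was 0.32 ± 0.09 (SE; edgeR adjusted p = 0.233). Cox6c, Cox7c and Cox7b, single-helix membrane subunits, had log2 fold changes of 0.27, 0.23 and 0.22, each with separated genotypes. Of the 31-base words of Cox7c, 29.9% occur in transcripts of 5 other genes, which held 598 counts beside 52703 for Cox7c. Ndufa4, once assigned to complex I and now counted in complex IV, had 0.15 ± 0.10 with overlapping genotypes, and 0.06 without wild-type replicate 3.

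Cox5a and Cox5b, the subunits of complex IV that face the matrix, had negative values. Cox5b, the zinc-binding subunit, had the lowest log2 fold change of all members. It was at 615, 477 and 649 CPM in knock-in hearts, against 720.4, 721 and 536 CPM in wild-type hearts. Knock-in replicate 2 and wild-type replicate 3 were the low hearts of their genotypes, and the ranges overlapped. The log2 difference was −0.18 ± 0.14 (SE; edgeR adjusted p = 0.749) and moved between −0.31 without wild-type replicate 3 and −0.05 without knock-in replicate 2. Of the 31-base words of Cox5b, 32.7% occur in other transcripts. Cox5a, which binds a thyroid hormone metabolite in the cow enzyme, had −0.09 ± 0.12, and lay between −0.18 without wild-type replicate 3 and −0.00 without knock-in replicate 2.

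**Figure D2:**
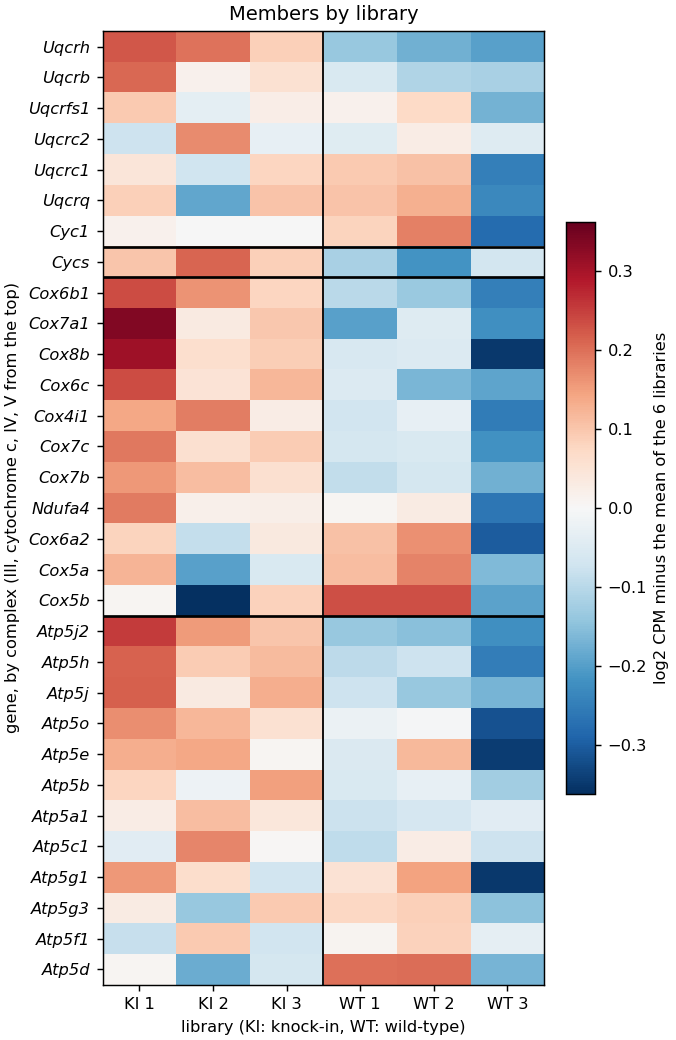
Level of each member in each heart as log2 CPM minus the mean of the 6 libraries (colour), with knock-in hearts in the left 3 columns and wild-type hearts in the right 3, and genes ordered within each complex by log2 fold change. Wild-type replicate 3, the last column, is the lowest library for 23 of the 31 genes.

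The 4 subunits of complex IV that have alternative tissue forms fell into different places. Cox7a1, the muscle form of subunit 7a, was at 1074, 870.0 and 909.8 CPM in knock-in hearts, against 743, 824 and 730.0 CPM in wild-type hearts. The genotypes did not overlap, and knock-in replicate 1 was the highest heart. The difference on the log2 scale was 0.31 ± 0.10 (SE; edgeR adjusted p = 0.329), and 0.23 without that heart. Cox6a2, the muscle form of subunit 6a and the member with the highest level per exon length, was at 1548, 1378 and 1498 CPM in knock-in hearts, against 1574, 1641 and 1189 CPM in wild-type hearts. These hearts were interleaved, and the log2 fold change was 0.01 ± 0.12 (SE), or −0.12 without wild-type replicate 3.

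Cox8b (ENSMUSG00000025488, chromosome 7, 140898945 to 140900446), the muscle form of subunit 8, was at 684, 576 and 587 CPM in knock-in hearts, against 531, 534 and 434 CPM in wild-type hearts. The ranges did not meet, and the log2 difference was 0.30 ± 0.11 (SE; edgeR adjusted p = 0.390). Cox4i1, the ubiquitous form of subunit 4 and the one at which ATP slows the enzyme, was at 2339.5, 2415 and 2166 CPM in knock-in hearts, against 2027, 2081 and 1782 CPM in wild-type hearts. It too was separated, with a log2 fold change of 0.23 ± 0.10 (SE; edgeR adjusted p = 0.442). Of its exons, 9.94% overlap those of Emc8 on the opposite strand, and the strand setting of the counting is not given in the sources used here.

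The muscle forms were then set against their ubiquitous partners within each heart, as log2 ratios of counts that do not depend on library scaling. Cox8a and Cox6a1, the partners, had lower values in knock-in hearts. Cox8a was at 84.2, 67.1 and 89.5 CPM in knock-in hearts, against 119, 117 and 96.1 CPM in wild-type hearts, with no overlap (log2 fold change −0.46 ± 0.13 SE; edgeR adjusted p = 0.237). Cox6a1 was at 53.3, 46.6 and 55.0 CPM in knock-in hearts, against 82.2, 74.3 and 55.6 CPM in wild-type hearts, and only wild-type replicate 3 came close to the knock-in range (−0.45 ± 0.14; edgeR adjusted p = 0.286).

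The log2 ratio of Cox8b to Cox8a was therefore 3.02, 3.10 and 2.71 in knock-in hearts, against 2.16, 2.20 and 2.17 in wild-type hearts. The 3 wild-type hearts were almost equal, wild-type replicate 3 among them, and the knock-in hearts were all above them. The means differed by 0.77, a 1.70-fold higher ratio in knock-in hearts (exact two-sided permutation p = 0.1, the smallest that 3 against 3 allows; adjusted p = 0.25 over 5 pairs). The log2 ratio of Cox6a2 to Cox6a1 was 4.86, 4.88 and 4.76 in knock-in hearts, against 4.26, 4.46 and 4.42 in wild-type hearts. Again the genotypes did not overlap, with a difference of 0.46 or 1.37-fold (exact permutation p = 0.1, adjusted p = 0.25). With each library left out the differences stayed between 0.69 and 0.88 for the subunit 8 pair and between 0.39 and 0.50 for the subunit 6a pair.

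The other pairs gave no separation. Cox7a2 had a log2 fold change of 0.29 ± 0.08 (SE), close to that of Cox7a1, and the log2 ratio of Cox7a1 to Cox7a2 differed by 0.02 between genotypes (exact permutation p = 0.8, n = 3 each). Cox4i2, the form induced by low oxygen in lung, was at 4.81 to 7.16 CPM in knock-in hearts, against 4.91 to 6.68 CPM in wild-type hearts, and the log2 ratio of Cox4i1 to it differed by 0.18 (exact permutation p = 0.6). Atp5g1 and Atp5g3, which encode the same mature ring subunit of complex V behind different import signals, had a log2 ratio that differed by 0.11 (exact permutation p = 0.4). The ubiquitous partners are also made in cells other than muscle. Of 10 macrophage and monocyte markers, all of them detected, 9 had negative values, their summed level was 254 to 273 CPM in knock-in hearts and 335 to 387 CPM in wild-type hearts, and 1 was called, Lyz2 (log2 fold change −0.60 ± 0.10 SE; edgeR adjusted p = 0.0399, lost in 5 of 6 fits that left out 1 library). Other cell types than muscle did not share this direction. Median log2 fold changes were 0.14 for endothelial markers (7 of 8 positive) and 0.16 for fibroblast markers (5 of 8 positive). They were 0.08 for smooth muscle and pericyte markers (4 of 7 positive) and 1.34 for the 7 red cell markers counted here. The part of any of these cells in the ratios was not tested.

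**Figure D3:**
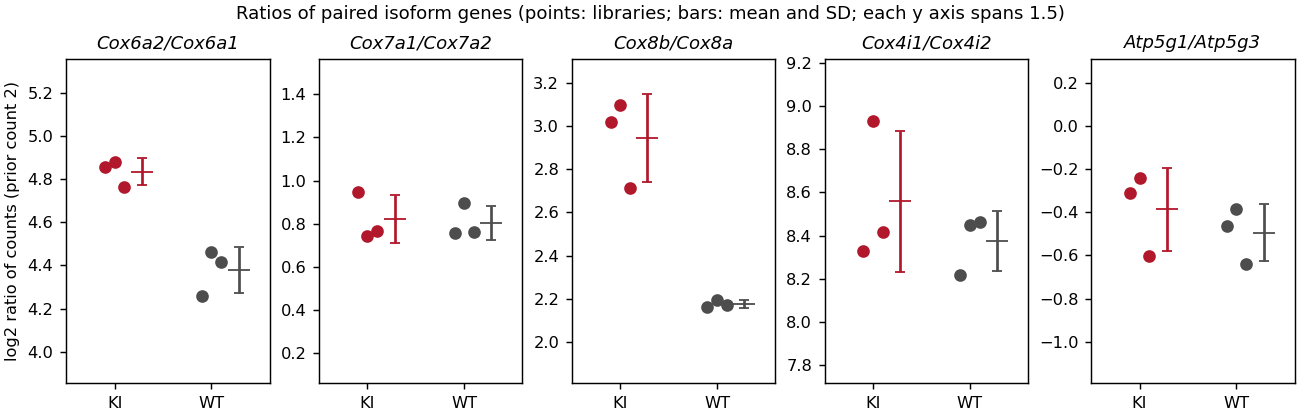
Log2 ratio of counts of 5 pairs of genes for alternative forms of 1 subunit, by heart, knock-in at left and wild-type at right in each panel, with mean and SD; all y axes span the same range. The genotypes are separated for Cox6a2 over Cox6a1 and for Cox8b over Cox8a, and overlap for the other pairs.

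Neither sequence upstream of the subunit 8 pair held any of the 5 motifs searched among the members, described further on. They are shown because this pair gave the widest separation, as the 250 bases before the RefSeq start (GRCm38.p6, minus strand for both), at chr7:140900447-140900696 and chr19:7217617-7217866.
Cox8b: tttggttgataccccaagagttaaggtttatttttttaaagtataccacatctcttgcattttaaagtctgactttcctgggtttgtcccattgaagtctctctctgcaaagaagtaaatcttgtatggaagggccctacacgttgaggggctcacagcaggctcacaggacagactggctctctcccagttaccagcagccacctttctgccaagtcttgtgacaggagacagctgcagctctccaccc
Cox8a: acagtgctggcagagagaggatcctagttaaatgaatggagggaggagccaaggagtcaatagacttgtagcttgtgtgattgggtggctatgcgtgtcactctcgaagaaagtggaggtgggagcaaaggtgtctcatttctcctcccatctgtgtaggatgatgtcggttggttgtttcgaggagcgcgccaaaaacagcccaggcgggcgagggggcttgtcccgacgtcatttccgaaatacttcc

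In complex V, 9 of 12 members had higher values in knock-in hearts, with a median log2 fold change of 0.13. The genotypes were separated for 6, beside 8.12% of all genes and 30.9% of the 188 abundant genes with knock-in hearts above. The F1 head, where ATP is made, had small values. Atp5a1, the alpha subunit and the complex V member with the highest level per exon length, was at 6076, 6443 and 6137 CPM in knock-in hearts, against 5645, 5711 and 5796 CPM in wild-type hearts. The ranges did not overlap, but the difference on the log2 scale was only 0.12 ± 0.08 (SE; edgeR adjusted p = 0.699). Atp5b, the catalytic beta subunit, was likewise separated, with means of 6755 ± 388 CPM in knock-in and 6131 ± 212 CPM in wild-type hearts (SD, n = 3 each) and a log2 fold change of 0.14 ± 0.09 (SE).

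The 3 subunits of the rotor shaft in F1 did not lean 1 way. Atp5c1, the gamma subunit, had a log2 fold change of 0.10 ± 0.09 (SE), and fits leaving out 1 library gave 0.04 to 0.15, the ends being those that omit the second and the first knock-in heart. Atp5e, the epsilon subunit, had 0.17 ± 0.12, between 0.06 without wild-type replicate 3 and 0.29 without wild-type replicate 2. Atp5d, the delta subunit, was at 592, 521 and 564 CPM in knock-in hearts, against 677, 678 and 525 CPM in wild-type hearts. Wild-type replicate 3 lay within the knock-in range, below both other wild-type hearts, and the log2 difference was −0.16 ± 0.11 (SE; edgeR adjusted p = 0.708), or −0.28 without that heart.

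The highest values of this complex were those of Atp5j2 and of 3 of the 4 subunits of the peripheral stalk, which holds F1 still against the turning rotor. Atp5j2 (ENSMUSG00000038690, chromosome 5, 145183698 to 145192062), subunit f of the membrane part, was at 921, 859.7 and 828 CPM in knock-in hearts, against 703, 696 and 662 CPM in wild-type hearts. Every knock-in heart was well above the wild-type range. The difference on the log2 scale was 0.34 ± 0.09 (SE; edgeR adjusted p = 0.179) and stayed between 0.31 and 0.38 with each library left out. Atp5h, subunit d of the stalk, was at 1265, 1165 and 1182 CPM in knock-in hearts, against 1023, 1038 and 919 CPM in wild-type hearts. These too were separated, with a log2 fold change of 0.28 ± 0.09 (SE; edgeR adjusted p = 0.304), and 27.8% of its 31-base words occur in other transcripts.

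The remaining stalk subunits did not all follow. Atp5j, coupling factor 6, and Atp5o, the subunit that gives oligomycin sensitivity, had log2 fold changes of 0.25 ± 0.09 and 0.22 ± 0.10 (SE) with separated genotypes, that of Atp5o being 0.13 without wild-type replicate 3. Of their exons, 12.7% and 35.6% overlap genes on the opposite strand, Gabpa and Gm15976, the last of which had 0 counts. Atp5f1, subunit b and the longest piece of the stalk, had −0.04 ± 0.09 with overlapping genotypes, and −0.06 without wild-type replicate 3. For the proton-carrying c ring, Atp5g1 was at 1422, 1331 and 1215 CPM in knock-in hearts, against 1322, 1409 and 1002 CPM in wild-type hearts. Atp5g3, which makes the same ring protein, was at 1767, 1573 and 1848 CPM in knock-in hearts, against 1822, 1837 and 1561 CPM in wild-type hearts. Both genes overlapped between genotypes, with log2 fold changes of 0.09 ± 0.13 and −0.01 ± 0.10 (SE). Without wild-type replicate 3 these were −0.05 for Atp5g1 and −0.08 for Atp5g3.

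Taken by position in the enzymes, a grouping made after the values had been seen, the 11 core and electron-carrying subunits of complex III, F1 subunits and ring subunits had a median log2 fold change of 0.05, with 2 separated and 0 higher at an unadjusted p under 0.05. The other 20 members had a median of 0.23, with 14 separated and 12 at that p. Of all genes, 8.12% were separated with knock-in hearts above and 4.74% were higher at that p. Among the 188 abundant genes these shares were 30.9% and 22.3%. The difference between the 2 sets is a description and was given no test, and both sets hold members near 0 and below it.

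Transcript levels per exon length (TPM, scaled to the same total in each library) put muscle forms at the top of complex IV. Cox6a2 stood at 4612 ± 259 TPM in knock-in and 4650.0 ± 833 TPM in wild-type hearts (SD, n = 3 each). Cox7a1 stood at 3779 ± 397 TPM in knock-in and 3079 ± 235 TPM in wild-type hearts, and Cox8b at 3636 ± 317 TPM in knock-in and 2989 ± 381 TPM in wild-type hearts. Cox7a1 and Cox8b did not differ beyond their spread in either genotype. Per exon length, Cox8b exceeded Cox8a 13.3-fold in knock-in and 7.78-fold in wild-type hearts. Cox6a2 exceeded Cox6a1 29.5-fold in knock-in and 21.6-fold in wild-type hearts, and Cox7a1 exceeded Cox7a2 3.12-fold in knock-in and 3.09-fold in wild-type hearts. In complex V, Atp5a1 led with 4219 ± 149 TPM in knock-in and 3922 ± 25.5 TPM in wild-type hearts. The complex III genes lay closer together, between 770.0 TPM for Uqcrq and 1776 TPM for Uqcrh in knock-in hearts. Exon lengths were taken over all annotated transcripts of a gene, which lowers the TPM of genes with a long minor transcript, such as Cox6c.

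Subunits of the same complexes that are not members were counted next. Of 15 such genes tested, 6 were higher and 2 lower (Cox8a and Cox6a1) at an unadjusted p under 0.05, with a median log2 fold change of 0.22 and 0 called by edgeR. Atpif1, which blocks the ATP synthase from running backwards when the membrane is discharged, had the smallest p, with 176 ± 9.56 CPM in knock-in and 124 ± 21.2 CPM in wild-type hearts (SD, n = 3 each) and a log2 fold change of 0.51 ± 0.13 (SE; edgeR adjusted p = 0.175). DESeq2 called it (DESeq2 adjusted p = 0.0393).

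Factors that build the enzymes had medians near or below 0, with single factors on both sides. The 26 assembly factors of complex IV had a median log2 fold change of −0.01, with 13 positive values, 1 higher and 2 lower at an unadjusted p under 0.05. Cox17, the copper chaperone of complex IV, was the one that was higher, with 0.41 ± 0.10 (SE; edgeR adjusted p = 0.173). For complex III the median over 6 factors was 0.04, with Uqcc2, needed for the making of cytochrome b, at 0.28 ± 0.12. For complex V it was −0.15 over 5 factors, with Atpaf2, whose yeast counterpart binds the free alpha subunit, at −0.25 ± 0.12. None of these factors was called by edgeR or DESeq2.

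Of the 6 subunits that mitochondrial DNA adds to these enzymes, 5 had lower values in knock-in hearts, 4 of them at an unadjusted p under 0.05, and the median log2 fold change was −0.77. edgeR called 1 and DESeq2 called 3. mt-Cytb, cytochrome b of complex III, had a log2 fold change of 0.02 ± 0.10 (SE) and mt-Co1, the oxygen-binding subunit of complex IV, had −0.05 ± 0.10. mt-Co2 and mt-Co3, the other mitochondrial subunits of that enzyme, had −0.60 ± 0.18 (edgeR adjusted p = 0.268) and −0.94 ± 0.17 (edgeR adjusted p = 0.0667). mt-Atp8, a short subunit of complex V, had −1.03 ± 0.23 (edgeR adjusted p = 0.145), and DESeq2 called it and mt-Co3 as well as mt-Atp6. mt-Atp6, part of the proton channel of complex V, fell by 1.20 ± 0.20 on the log2 scale (edgeR adjusted p = 0.0456), but the call was lost in 4 of 6 fits that left out 1 library. Of its 31-base words, 99.5% occur in transcripts of other genes, as do 99.9% for mt-Co3, 100% for mt-Co2, 63.9% for mt-Co1 and 7.47% for mt-Atp8. At 30.3 ± 4.49 CPM in knock-in and 69.3 ± 18.4 CPM in wild-type hearts (SD, n = 3 each) its counts lay far below those of mt-Co1. The values of mt-Atp6, mt-Co2 and mt-Co3 are therefore uncertain as measures of the mitochondrial transcripts. That of mt-Co1 is uncertain to the extent of its shared words. Of the exons of mt-Atp8, 21.1% overlap mt-Atp6 on the same strand, so its value is uncertain too.

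**Figure D4:**
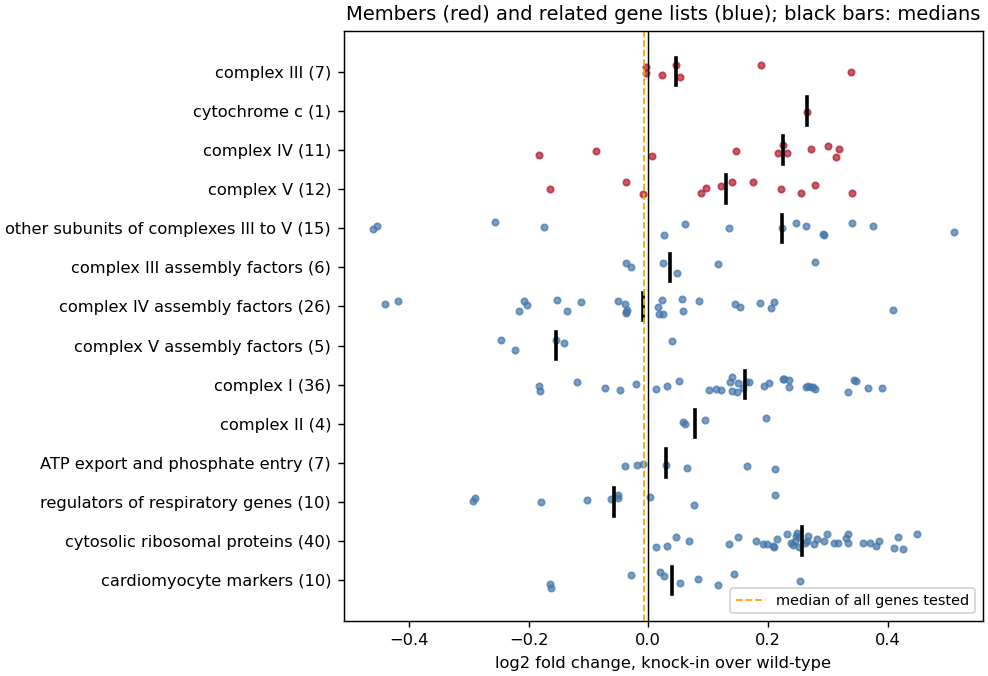
Log2 fold change, knock-in over wild-type, of each gene in the 4 member groups (red) and in related lists (blue), with the number of genes tested in brackets and black bars at the medians. Complex I and the cytosolic ribosomal proteins have medians of 0.16 and 0.26, and the medians of the assembly factors lie near or below 0.

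Neighbouring pathways were counted in the same way. Complex I, which feeds electrons into the chain, had a median log2 fold change of 0.16 over 36 subunits, with 12 higher at an unadjusted p under 0.05 and 0 called. Its smallest p was that of Ndufa13 (0.39 ± 0.10 SE; edgeR adjusted p = 0.177). The 40 cytosolic ribosomal proteins had a median of 0.26 and 40 positive values, with 27 higher at an unadjusted p under 0.05. Of these 40 genes, 0 were called by edgeR and 1 by DESeq2. Rpl13a had the smallest edgeR p (0.45 ± 0.09 SE, edgeR adjusted p = 0.0883). Complex II, the other entry to the chain, had a median of 0.08 over 4 genes (smallest p for Sdhc, 0.20 ± 0.10). The carriers that export ATP and bring in phosphate had 0.03 over 7 genes, with Vdac1, a pore of the outer membrane, at 0.21 ± 0.10. The 10 regulators of respiratory genes had a median of −0.06, and Esrra, a nuclear receptor that drives such genes, had the smallest p with −0.29 ± 0.12 (SE; edgeR adjusted p = 0.442).

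**Figure D5:**
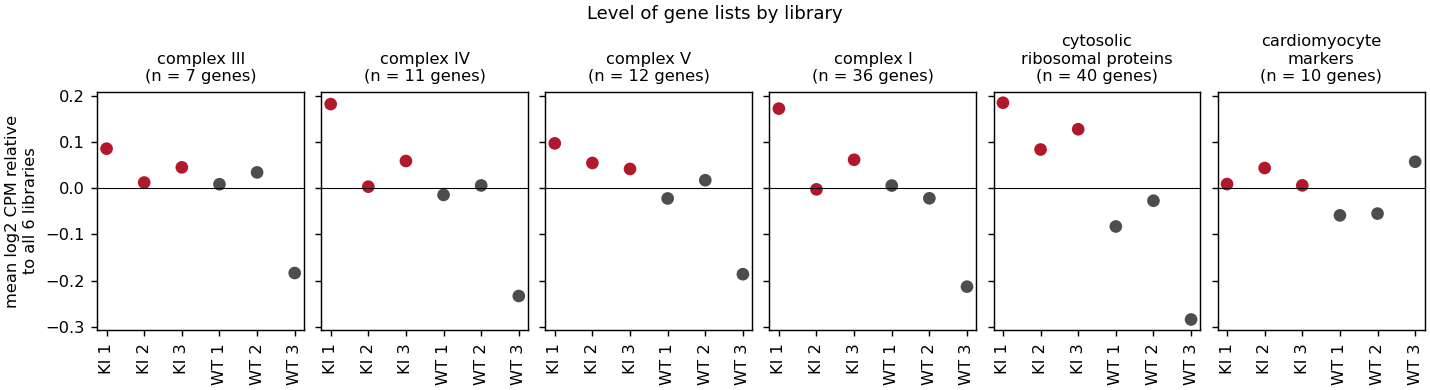
Mean log2 CPM of the genes of 6 lists in each heart, relative to the mean of all 6 libraries, knock-in hearts in red at left and wild-type hearts in grey at right of each panel. Wild-type replicate 3 is the lowest heart for complexes III, IV, V and I and for ribosomal proteins, and the highest for cardiomyocyte markers.

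By heart, the mean log2 level of the 31 members relative to all libraries was 0.12, 0.03 and 0.05 in knock-in hearts, against −0.02, 0.01 and −0.20 in wild-type hearts. The genotypes did not overlap, but wild-type replicate 3 lay much farther from the other wild-type hearts than these did from the knock-in hearts. The 16 separated members gave 0.19, 0.10 and 0.09 in knock-in hearts, against −0.09, −0.09 and −0.20 in wild-type hearts. The other 15 gave 0.05, −0.04 and 0.01 in knock-in hearts, against 0.06, 0.12 and −0.20 in wild-type hearts. In the mean over these 15 genes, the 2 wild-type hearts other than replicate 3 were thus above the knock-in hearts. For wild-type replicate 1 the margin was slight, 0.060 against 0.051 in knock-in replicate 1. Single genes did not all follow, and wild-type replicate 1 lay below every knock-in heart for Ndufa4 and Atp5e. Because the 2 sets were split by this same comparison, the contrast between them is a description of the data only.

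Markers of heart cell types were set beside these levels. The 10 cardiomyocyte markers, all detected, had a median log2 fold change of 0.04 with 0 called, and Tnnt2, cardiac troponin T, had the smallest p (0.25 ± 0.08 SE; edgeR adjusted p = 0.322). The 8 endothelial and 8 fibroblast markers had medians of 0.14 and 0.16 with 0 called, with smallest p for Kdr (−0.38 ± 0.17) and Dcn (0.16 ± 0.09). The 7 smooth muscle and pericyte markers had a median of 0.08 with 4 positive values. Acta2 alone was called, with a log2 fold change of −1.24 ± 0.12 (SE; edgeR adjusted p = 0.00268), and the summed level of all 7, Acta2 included, was 543 to 561 CPM in knock-in and 636 to 697 CPM in wild-type hearts. All 7 red cell markers counted here had higher values in knock-in hearts and 6 were called, with a median log2 fold change of 1.34 and a summed level of 1494 to 1964 CPM in knock-in and 487 to 665 CPM in wild-type hearts. Among them Hba-a1, an alpha-globin gene, stood at 353 ± 52.9 CPM in knock-in and 139 ± 19.9 CPM in wild-type hearts (SD, n = 3 each) and rose by 1.34 ± 0.14 on the log2 scale (SE; edgeR adjusted p = 0.00268), a call kept in 6 of 6 fits that left out 1 library. What blood, smooth muscle or macrophages add to the members' values was not tested.

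The muscle forms Cox6a2, Cox7a1 and Cox8b are also made in skeletal muscle and brown fat, so markers of both were counted. Of 8 brown fat markers, 2 passed the filter on low counts, 1 with a higher and 1 with a lower value in knock-in hearts. The filter also kept 2 of 8 skeletal muscle markers, and their values were lower. Ucp1, which defines brown fat, had 1 read in knock-in replicate 1 and 0 in the other 5 libraries, and Plin1, Elovl3, Otop1 and Lep had 0 in all 6. Cidea, a lipid droplet protein of the same list, was measured (log2 fold change 0.62 ± 0.11 SE; edgeR adjusted p = 0.0667). It was the brown fat marker with the higher value, and all its knock-in hearts lay above all its wild-type hearts. DESeq2 called 1 of the 2 brown fat markers tested. The skeletal muscle genes Myh2 and Myh4 had at most 1 read in a library, and Ckm, which the heart also makes, had −0.05 ± 0.11. Of the atrial markers, Nppa had a log2 fold change of 0.85 ± 0.58 (SE), and at 573, 151 and 286 CPM in knock-in hearts, against 207, 252 and 103 CPM in wild-type hearts, it did not follow the genotypes.

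Sequence properties of the transcripts were compared with the fold changes as a description. Across the 31 members the log2 fold change had a Spearman correlation of −0.02 with GC content and of −0.31 with transcript length, against −0.02 and −0.11 over 12757 genes. Genes share libraries and are not independent, so no p is given. The members are short, 24 of them being among the 2552 shortest of the 12757 genes, and these 2552 genes had a median log2 fold change of 0.03, against 0.16 for the 24 members among them. When a trend with GC content was taken out of each library, a step added after the data had been seen, 13 of the 16 separated members still had all knock-in hearts above all wild-type hearts and no other member did, where 8.93% of all genes did.

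Upstream sequences were read for 23 of the 31 members that had an entry in the RefSeq promoter table (GRCm38.p6), as the 250 bases before the start. This window was chosen after motif counts in a longer one had been seen. The motifs were the GABP/ETS core CCGGAAG, the NRF1 core GCGCATGC, the YY1 core AAGATGGC, the element TCAAGGTCA bound by oestrogen-related receptors (ERR) and TATAAA, on both strands. GABP, NRF1, YY1 and ERR are factors known for driving genes of the respiratory chain. The GABP/ETS core occurred in 5 of the 23 (21.7%), against 7.83% of 27025 genes. The NRF1 core occurred in Cycs alone, the YY1 core in Atp5j alone and the ERR element in Atp5g3 alone, against 2.56%, 1.83% and 0.422% of all genes, and TATAAA in 0 of 23, against 14.3%.

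The GABP/ETS carriers were Uqcrh, Cox6b1, Atp5e, Atp5h and Atp5j, and 4 of these 5 are among the members with separated genotypes. Since 12 of the 23 members read were separated, this count is small and was given no test. The sites of these 5 genes and of Cycs are shown because Uqcrh and Cox6b1 had the smallest p of their complexes and Cycs is the electron carrier itself. Each gives 30 bases on the strand of the gene, minus for all 6, with the motif in capitals. For Uqcrh the window was chr4:116075071-116075100, with the motif 10 bases before the start, and for Cox6b1 chr7:30626124-30626153, with the motif 28 bases before it. For Atp5e it was chr2:174464185-174464214 (102 bases), for Atp5h chr11:115419939-115419968 (38 bases) and for Atp5j chr16:84835019-84835048 (61 bases). For Cycs, with the NRF1 core, it was chr6:50566611-50566640 (60 bases).
Uqcrh: actacgaggagtatgccgcaCTTCCGGcca
Cox6b1: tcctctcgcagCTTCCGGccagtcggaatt
Atp5e: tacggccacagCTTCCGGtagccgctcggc
Atp5h: caaggagagaaCTTCCGGcaactctcttcc
Atp5j: agctgagggacCCGGAAGcacttaccctcc
Cycs: catgctagctcGCATGCGCgcgcacaaacc
The core lies in reverse complement in Uqcrh, Cox6b1, Atp5e, Atp5h and Cycs. Distances are from the RefSeq start. By the GENCODE gene coordinates, which reach farther upstream, the motifs of Cox6b1, Atp5h and Atp5j lie inside the gene. A match of these letters is not a measured binding site, and Gabpa itself, a subunit of GABP, overlaps Atp5j on the other strand.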

How the data were processed

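Heart RNA was purified with RNeasy columns and sequencing libraries came from a kit of the NEBNext Ultra II RNA line, as the labels' protocols state. The authors deposited raw read counts per gene, with no normalization, in 1 table of 6 libraries. STAR, DESeq2, featureCounts and Subread 1.5.2 are named with the build GRCm38.p6 in the submitters' processing notes. The sources used here do not give the annotation release, the strand setting or the handling of multi-mapping reads. Library totals of 14146048 to 15620476 counts leave counting error small for every member.

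Columns were matched to samples by their descriptions. Genes were named from GENCODE M21 (GRCm38), which held 49056 of 49315 identifiers. Genes were tested with edgeR 4.0.16 in R 4.3.3 (filterByExpr, TMM, robust quasi-likelihood fit over all 6 libraries, no covariate), with p adjusted over 12777 genes. The SE was taken as the absolute log2 fold change over the square root of F. DESeq2 1.42.0 and limma-voom 3.58.1, run on the genes passing filterByExpr, other scalings and filters, and each library left out were alternatives. Isoform ratios used counts plus a prior count of 2. Shared sequence was measured on the longest transcript of a gene, as the percentage of its 31-base words present in another gene's transcripts on either strand. The functions were checked on simulated counts.

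Full values were given for Txnip, for the 2 smallest p, the lowest log2 fold change and the highest wild-type TPM in each complex, and for isoform pairs. In other lists the called genes, or else the smallest p, were named, except that 7 red cell markers (Hba-a1, Hba-a2, Hbb-bs, Hbb-bt, Alas2, Slc4a1 and Bpgm) are counted, Hba-a1 being named after its values were seen, and 1 listed gene is not reported here. Atp5b, Ndufa4 and other members are given more briefly, as is Cox7a2, the partner of a member, and mt-Cytb, mt-Co1, mt-Co2, mt-Co3, mt-Atp8, Ucp1, Plin1, Elovl3, Otop1, Lep, Myh2 and Myh4 were chosen after values were seen. The members and lists were chosen with earlier results of these data known, so counts over them are descriptions. The listed symbol Mzm1l matched no gene. The design text gives 3 hearts per genotype and no batch. The p-values of edgeR set the difference between genotypes against variation among hearts, estimated with information shared across genes. Whether batch or litter differed between the genotypes is not known.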

Additional observations from a re-analysis of the deposited data

How the results depend on the processing

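The count of called members was 0 in every alternative run except the fit without knock-in replicate 2 and wild-type replicate 3, chosen after seeing the data, which called 1 (Atp5j2, edgeR adjusted p = 0.0499). The members' median log2 fold change was positive throughout, between 0.10 and 0.19. The members higher at an unadjusted p under 0.05 numbered 8 to 13 in fits on all libraries and 6 to 13 with each library left out. The genes called among all tested moved more, to 317 with no filter, 131 with DESeq2, 18 with limma-voom, 14 with the mitochondrial share as a covariate, 392 without the pair of libraries named above, 75 at an adjusted p under 0.1 and 5 to 174 with each library left out. These additions (covariate, pair of libraries, GC trend) were chosen after seeing the data.

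The difference in log2 ratio of Cox7a1 to Cox7a2 ran between −0.0484 and 0.0613 with each library left out and that of Cox4i1 to Cox4i2 between −0.00405 and 0.299. Members near 0 changed sign, and the cause was not tested. With RLE, DESeq2 and no filter, the log2 fold changes were 0.0012, 0.0012 and 0.00012 for Uqcrq and 0.0012, 0.0012 and 0.00067 for Cyc1, which had 0.0090 with voom and 0.14 with the GC trend removed. Cox6a2 had −0.00079 with upper-quartile scaling, −0.0361 with library size only, −0.158 with the covariate and −0.0716 without the pair. Uqcrc1 had −0.0191, −0.106 and −0.0346 in the last 3 of these. Atp5g1 had −0.0781 and −0.0432 with the covariate and without the pair, Uqcrfs1 had −0.0371 with the covariate, Uqcrc2 had −0.0382 without the pair, and Atp5f1 had 0.00695 with the GC trend removed. Without the pair Atp5f1 kept its sign, at −0.116.

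With each library left out, the log2 fold changes ran between −0.0836 and 0.0838 for Uqcrc1, −0.0222 and 0.10 for Uqcrc2, −0.0145 and 0.105 for Uqcrfs1, −0.11 and 0.0946 for Uqcrq, −0.129 and 0.0926 for Cyc1, −0.124 and 0.0951 for Cox6a2, −0.09 and 0.00372 for Atp5f1, −0.0453 and 0.188 for Atp5g1 and −0.0813 and 0.065 for Atp5g3. No paired analysis was possible because the replicate numbers were given in accession order and link no hearts across genotypes. With 3 hearts a genotype, no exact permutation p can go below 0.1, and depth is not the limit for these abundant genes.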
